A study of Mus musculus with 12 samples.

Results

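The genes described here are 9 genes of the tight junction, listed by symbol: the claudin genes Cldn1, Cldn2, Cldn3, Cldn5, Cldn6, Cldn7 and Cldn12, occludin (Ocln) and Tjp1. All 9 were present among the 38127 genes counted in each library, and the counts held 26 further claudin genes. Tight junctions seal the space between neighbouring cells of an epithelium or endothelium. Claudins are membrane proteins that span from cell to cell and either close this space or form pores for ions and water, and each tissue uses its own mix of them. Occludin sits in the same strands, and ZO-1, the product of Tjp1, is the cytoplasmic scaffold that ties claudins and occludin to actin. In liver, tight junctions of hepatocytes border the bile canaliculi, endothelial junctions line the vessels, and erythroid cells form none.

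RNA was sequenced from cells sorted out of fetal liver (FL) of C57BL/6 mouse embryos, with 12 libraries in 4 groups of 3, numbered as replicates 1 to 3. All 4 sorts took cells negative for Ter119 and CD45, the surface markers of mature red cells and of leukocytes. P2 cells of embryonic day (E) 14.5 were CD54-CD31-Kit+CD24+, and the study describes them as erythroid progenitors. The E14.5 CD54+CD31- cells are the fraction that holds hepatoblasts, the E14.5 CD31+ cells were labelled CD54+CD31+ and represent endothelium, and the last group was sorted as CD54+CD31- at E18.5. No transgene or treatment was used. The study states independent litters as its replicates at E14.5, and nothing states it for the E18.5 libraries, so that p-values there measure the spread between libraries only. These populations are mixtures set by surface gates, and no single cell type was isolated.

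Total counts ranged from 40714017 to 64368883 per library. Levels are given as CPM, counts scaled to library sizes that were adjusted by the TMM method over the 12 libraries. Differences were tested with edgeR (quasi-likelihood, p-values adjusted by Benjamini-Hochberg over the 15461 genes tested at E14.5 and the 15863 tested between ages), and a log2 fold change is followed in parentheses by its standard error and adjusted p. The 10 endothelial markers summed to between 7213 and 7789 CPM in CD31+ libraries and to at most 338.5 elsewhere. The 10 hepatoblast markers summed to 72171 to 83288 CPM in E14.5 CD54+CD31- libraries and to 700.3 to 966.9 in the other E14.5 libraries. The 8 erythroid markers summed to 2669 to 2834 CPM in P2 and to at most 619.3 elsewhere. Ptprc, the gene of CD45, was still counted, with 8.83, 11.4 and 15.3 CPM in E14.5 CD54+CD31- replicates 1 to 3. It had 8.17, 8.96 and 16.1 CPM in CD31+ cells, 1.45, 2.71 and 2.06 in P2, and 3.14, 13.6 and 13.4 at E18.5.

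The E18.5 libraries stood apart from their label of liver. The 12 lung epithelium markers summed to 24968, 11654 and 11727 CPM in E18.5 replicates 1, 2 and 3, while no E14.5 library exceeded 250.4, and all 12 were higher at E18.5 than in the same gate at E14.5. Nkx2-1, a defining lung factor, had 0 counts in the E14.5 CD54+CD31- libraries and 229.9 to 376.8 CPM at E18.5. Mesenchymal markers (3940 to 4371 CPM summed, 238.5 at most elsewhere) and mesothelium markers (334.7 to 554.9, 8.69 at most elsewhere) were also high. The hepatoblast markers summed to 4653 CPM in E18.5 replicate 1 and to 36468 and 47171 in replicates 2 and 3. Because replicate 1 had the lowest hepatoblast sum of the 3, the E18.5 result of each member was also computed without it. Replicates 2 and 3 held the lung markers as well, so this leaves those markers in the comparison of ages. Age and cell make-up differ together between these groups and cannot be told apart. Among the E14.5 libraries, P2 replicate 2 had 338.5 CPM of endothelial markers against 68.9 and 104.5 in P2 replicates 1 and 3.

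Of the claudins among the 9 genes, a different one had the highest mean level per kb of exon in each of the 3 CD54+ sorts, and the 250 bases before their RefSeq starts are printed to show what these promoters hold. The 3 claudins are Cldn1 for E14.5 CD54+CD31- cells, Cldn5 for CD31+ cells and Cldn3 for E18.5 CD54+CD31- cells. In CPM, not divided by length, the means of Cldn1 and Cldn3 in the E18.5 libraries were 98.7 and 97.2. Each is given 5′ to 3′ on the strand of its gene, from RefSeq's annotation of GRCm38.p6, and capitals mark the GC box (GGGCGG on either strand), the binding motif of Sp factors.
Cldn1, chr16:26371840-26372089, minus strand: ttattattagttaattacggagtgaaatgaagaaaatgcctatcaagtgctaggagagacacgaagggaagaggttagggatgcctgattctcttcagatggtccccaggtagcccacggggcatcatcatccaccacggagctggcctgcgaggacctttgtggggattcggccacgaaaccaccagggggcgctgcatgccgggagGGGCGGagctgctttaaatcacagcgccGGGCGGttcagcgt
Cldn5, chr16:18776597-18776846, plus strand: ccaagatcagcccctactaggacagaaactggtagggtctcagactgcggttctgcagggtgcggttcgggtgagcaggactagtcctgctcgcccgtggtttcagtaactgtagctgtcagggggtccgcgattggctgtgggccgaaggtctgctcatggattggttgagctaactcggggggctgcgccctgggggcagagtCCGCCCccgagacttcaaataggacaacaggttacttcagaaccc
Cldn3, chr5:134985964-134986213, plus strand: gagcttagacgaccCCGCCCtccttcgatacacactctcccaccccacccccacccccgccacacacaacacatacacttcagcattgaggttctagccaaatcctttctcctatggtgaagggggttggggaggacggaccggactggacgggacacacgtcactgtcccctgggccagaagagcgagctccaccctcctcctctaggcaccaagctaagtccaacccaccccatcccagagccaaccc
The GC box began 42 and 14 bases before the start of Cldn1, 45 bases before that of Cldn5 and 236 bases before that of Cldn3. A GC box was found before at least 1 start of 8 of the 9 genes, in 10 of their 13 promoter windows (windows of 1 gene can overlap), and in 32.7% of all 32851 promoters of this length. Cldn2 was the exception and instead held a TATA box (TATAAA), 35 bases before its start, a motif found in 12.4% of all promoters. Other motifs were searched on both strands. The ETS core GGAAG (64.1% of all promoters) was before 5 of the 9 genes, Cldn1 and not Cldn5 or Cldn3 among the printed ones, the E-box CACCTG (17.2%) before 3, GATAA (22.6%) before 1, Tjp1, and the forkhead motif TGTTTNC (17.8%) before 0. These matches describe letters only.

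To compare claudins with each other, levels were divided by exon length (CPM per kb of exon) and summed over the 33 claudin genes of the counts. The summed claudin level was 42.2 ± 4.01 CPM per kb (SD, n = 3) in P2, 63.0 ± 4.69 in E14.5 CD54+CD31- cells, 113 ± 11.9 in CD31+ cells and 244 ± 55.4 in E18.5 CD54+CD31- cells. In E14.5 CD54+CD31- cells Cldn1 held 51.5 to 57.4% of this sum and Cldn12 24.3 to 25.0%. In CD31+ cells Cldn5 alone held 90.8 to 92.5%. In E18.5 CD54+CD31- cells, Cldn18 held 32.4 to 41.8% and Cldn3 28.3 to 35.8%. In P2 cells Cldn13 held 83.8 to 92.8%. Cldn5 held 2.08, 11.1 and 2.54% in replicates 1, 2 and 3, and Cldn12 0.898 to 1.18%. Cldn13, a claudin gene of mice without a human counterpart, is in the study's list of P2 genes, which was chosen from these same libraries.

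**Figure D1:**
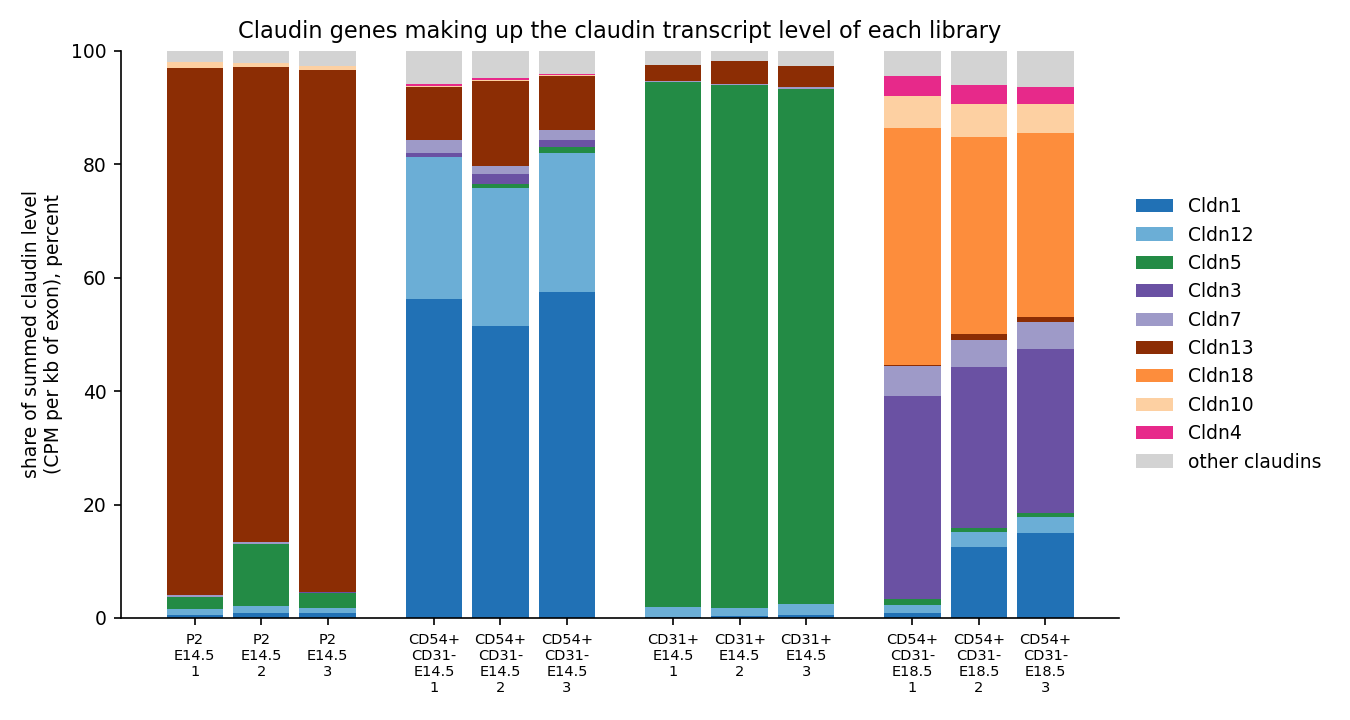
Stacked bars give, for each of the 12 libraries, the share of the summed claudin level (CPM per kb of exon, in percent) held by each named claudin. Cldn13 fills most of the P2 bars, Cldn1 and Cldn12 most of the E14.5 CD54+CD31- bars and Cldn5 the CD31+ bars, while E18.5 replicate 1 has 0.914% of Cldn1 against 12.4 and 14.96% in replicates 2 and 3.

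Cldn1, Cldn12 and Ocln were highest at E14.5 in CD54+CD31- cells. Claudin-1 is a barrier-forming claudin of epithelia and of hepatocytes, and its gene (ENSMUSG00000022512) lies on chromosome 16 of GRCm38 from 26356642 to 26371841. Cldn1 had 157, 165 and 182 CPM in replicates 1, 2 and 3 of E14.5 CD54+CD31- cells, 1.22, 1.64 and 1.81 in P2, and 1.33, 1.66 and 2.19 in CD31+ cells. The P2 and CD31+ libraries overlapped each other and lay far below the CD54+CD31- libraries. The fitted log2 fold change was -6.76 (0.21, 1.08e-09) for P2 against CD54+CD31- cells and -6.60 (0.20, 1.47e-09) for CD31+ against CD54+CD31- cells. In bulk samples like these, fewer cells of a type and less RNA per cell cannot be told apart. Cldn1 in P2 was 0.929% of its CD54+CD31- mean, and the hepatoblast markers had a median of 0.894% (0.824 to 1.36%) there. In CD31+ cells the values were 1.03% for Cldn1 and a median of 1.32% (1.07 to 2.02%) for the markers. The part of carried-over hepatoblast RNA in the low Cldn1 counts was not tested.

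Claudin-12 lacks the tail motif by which most claudins bind ZO-1, and is linked to calcium permeability. Its gene (ENSMUSG00000046798, chromosome 5 from 5489537 to 5514958) had 60.9, 67.9 and 67.8 CPM in E14.5 CD54+CD31- replicates 1 to 3, 7.80, 7.61 and 8.76 in CD31+ cells, and 2.11, 2.00 and 1.502 in P2. The 3 populations did not overlap, in the order CD54+CD31-, CD31+, P2. The log2 fold change was -3.03 (0.13, 1.39e-08) for CD31+ against CD54+CD31- cells, -2.12 (0.14, 3.23e-07) for P2 against CD31+ cells and -5.15 (0.15, 6.54e-10) for P2 against CD54+CD31- cells. As a share of the CD54+CD31- mean, Cldn12 was 12.3% in CD31+ cells and 2.85% in P2, both above the highest hepatoblast marker there.

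Occludin, whose gene (ENSMUSG00000021638) lies on chromosome 13 from 100496507 to 100552718, had 76.7, 78.3 and 86.5 CPM in E14.5 CD54+CD31- replicates 1 to 3. Ocln had 3.58, 3.79 and 3.68 CPM in P2 and 3.04, 2.87 and 2.80 in CD31+ cells. Both low groups were narrow and just apart. Against CD54+CD31- cells the log2 fold change was -4.47 (0.10, 1.71e-10) in P2 and -4.80 (0.10, 1.80e-10) in CD31+ cells. Between P2 and CD31+ cells the difference was small, 0.33 (0.09, 0.00783) higher in P2. This small difference passed the test in 15 of 18 alternative settings and became -0.04 with the authors' deposited factors, so its direction depends on the scaling.

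**Figure D2:**
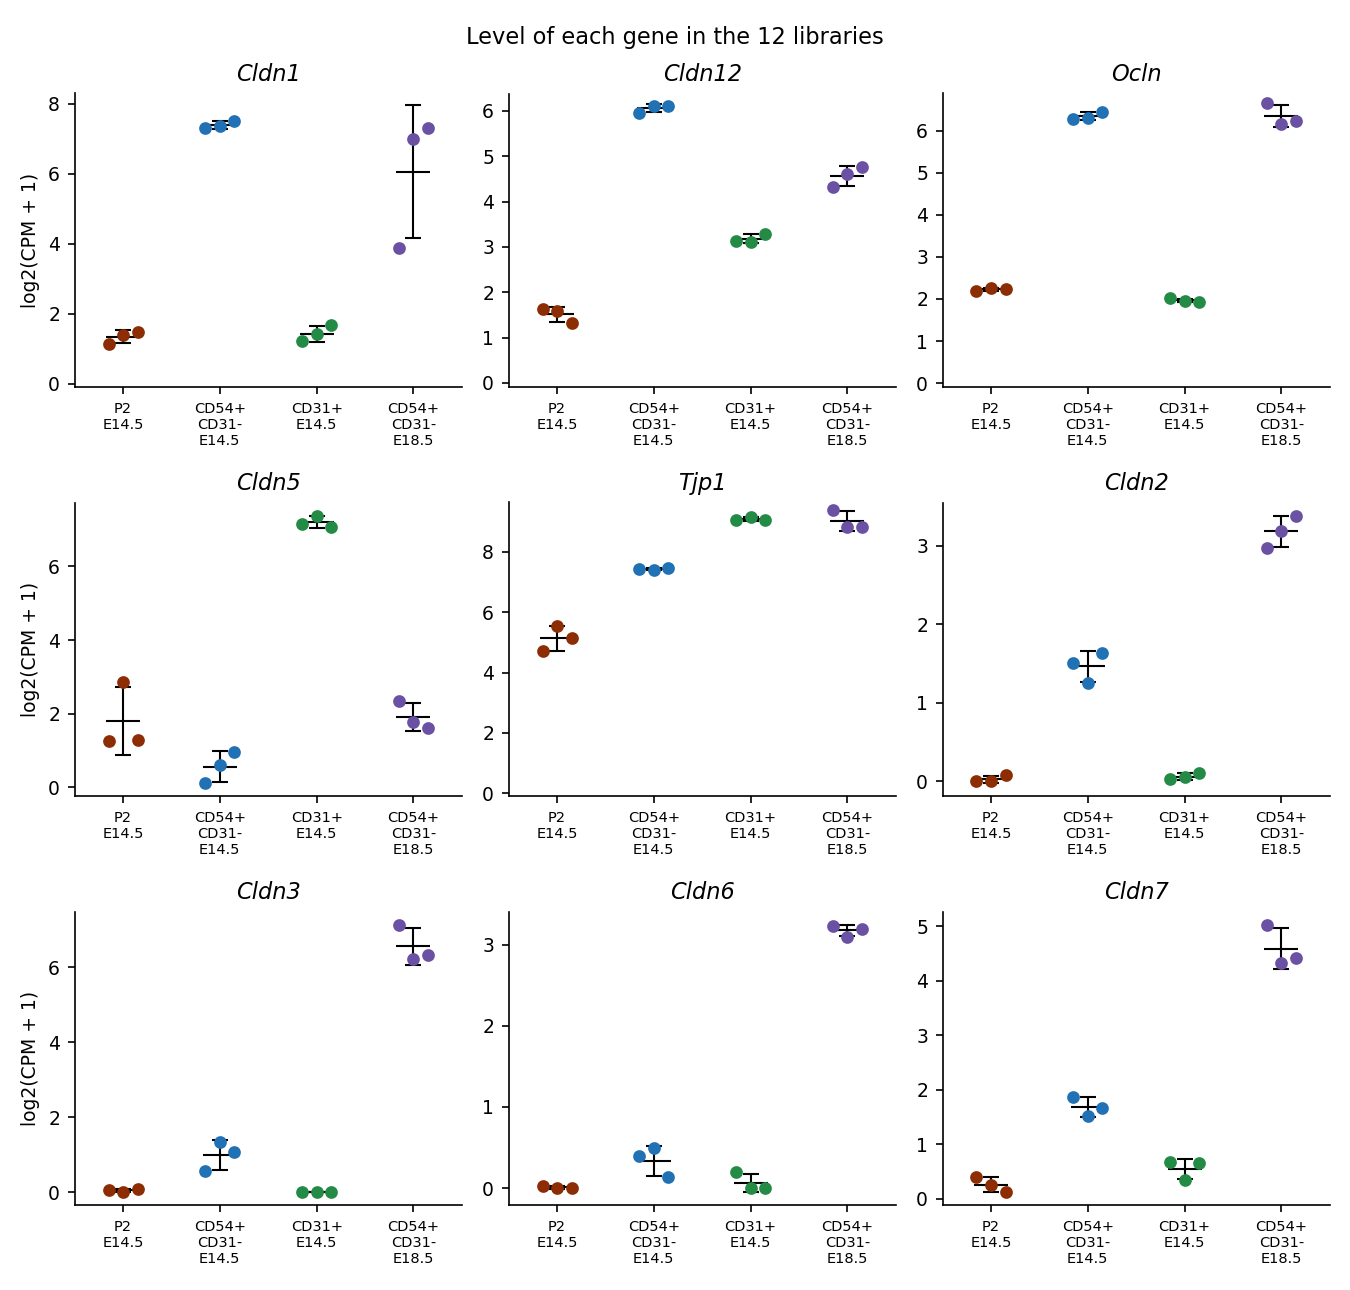
Each panel shows 1 of the 9 genes, with log2(CPM + 1) on the vertical axis and the 4 sorted populations on the horizontal axis. Points are the 3 libraries of a population in the order of replicates 1 to 3, and bars are their mean ± SD on this scale. Cldn1, Cldn12 and Ocln are high in E14.5 CD54+CD31- cells, Cldn5 in CD31+ cells, and Cldn2, Cldn3, Cldn6 and Cldn7 in E18.5 CD54+CD31- cells.

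Cldn5 had the reverse pattern. Claudin-5 is the main claudin of endothelium, best known for sealing brain vessels, and its single-exon gene (ENSMUSG00000041378) lies on chromosome 16 from 18776847 to 18778262. Cldn5 had 142, 165 and 133 CPM in CD31+ replicates 1 to 3, 1.38, 6.29 and 1.42 in P2, and 0.0849, 0.535 and 0.938 in E14.5 CD54+CD31- cells. Those CD54+CD31- levels rested on 3, 17 and 38 counts. Every CD31+ library lay above every other library, and P2 replicate 2 stood above the other P2 libraries. The log2 fold change was 8.09 (0.72, 3.75e-06) for CD31+ against CD54+CD31- cells, -5.61 (0.60, 1.16e-05) for P2 against CD31+ cells and 2.48 (0.72, 0.0105) for P2 against CD54+CD31- cells. Without P2 replicate 2 the last value was 1.38 (adjusted p = 0.0164) and the one before it -6.71. Without E14.5 CD54+CD31- replicate 3, the difference of P2 from these cells was 3.30 and that of CD31+ cells 8.91. The endothelial markers moved alongside. Cldn5 in P2 was 0.939, 4.28 and 0.971% of its CD31+ mean in replicates 1, 2 and 3, and the median of the 10 endothelial markers was 0.643, 4.23 and 1.06%. Of these markers 8 of 10 were higher in P2 than in CD54+CD31- cells, and their median difference was 2.25 on the log2 scale. The part of endothelial RNA in the P2 level of Cldn5 was not tested.

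**Figure D3:**
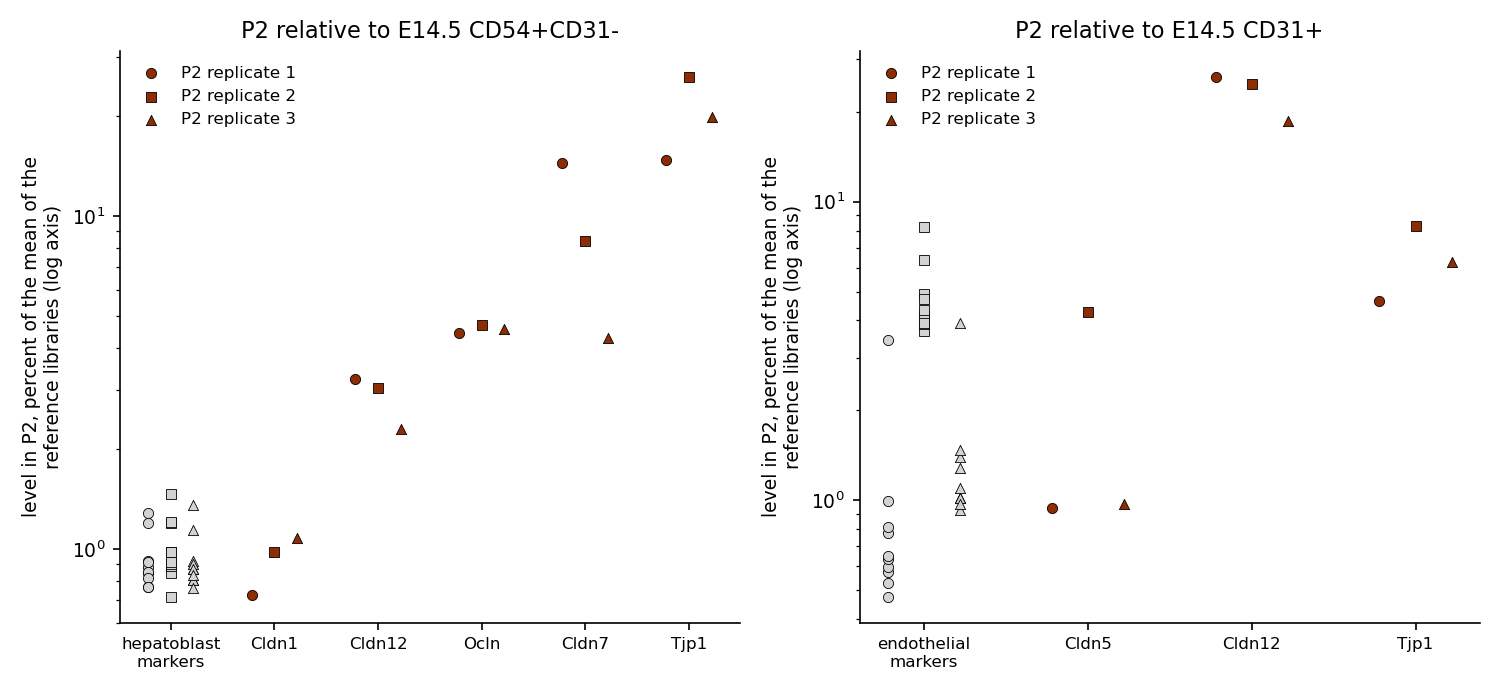
Levels in the 3 P2 libraries (circles, squares and triangles for replicates 1, 2 and 3) are plotted on a log axis as a percent of the mean of the reference libraries, E14.5 CD54+CD31- on the left and CD31+ on the right, with grey symbols for single marker genes. On the left Cldn1 lies among the hepatoblast markers while Cldn12, Ocln, Cldn7 and Tjp1 lie above them, and on the right Cldn5 is 0.939, 4.28 and 0.971% with the squares of the endothelial markers also raised.

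Tjp1, the gene of the ZO-1 scaffold (ENSMUSG00000030516, chromosome 7 from 65296165 to 65527781), was expressed in all 4 populations. It had 528, 575 and 538 CPM in CD31+ replicates 1 to 3, 173, 170 and 177 in E14.5 CD54+CD31- cells, and 25.4, 45.2 and 34.4 in P2. The 3 populations did not overlap, and P2 was the lowest. CD31+ cells exceeded CD54+CD31- cells by 1.65 on the log2 scale (0.17, 1.10e-05). P2 lay below CD54+CD31- cells by -2.32 (0.17, 8.13e-07) and below CD31+ cells by -3.98 (0.19, 6.08e-08). Per kb of exon, Tjp1 had 4.48 ± 1.27 CPM in P2 (SD, n = 3), against 0.872 ± 0.0243 for Ocln and 0.322 ± 0.0632 for Cldn1. Tjp1 in P2 was 20.2% of its CD54+CD31- mean, the highest share among the members that were lower in P2.

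Cldn2, Cldn3 and Cldn6 were near the detection limit in most E14.5 libraries, so raw counts are given. Claudin-2 forms cation and water pores, and its gene (ENSMUSG00000047230) lies on chromosome X from 139800828 to 139811386. Cldn2 had 65, 44 and 86 counts in E14.5 CD54+CD31- replicates 1 to 3, 1, 2 and 5 in CD31+ cells, and 0, 0 and 3 in P2. Over the group, the ratio of CD54+CD31- cells to P2 was 86.7 (95% exact Poisson interval 29.2 to 424, covering counting error only). Both low groups were below CD54+CD31- cells in the test (-6.28, 0.81, 4.84e-05 for P2 and -5.23, 0.72, 9.35e-05 for CD31+ cells). P2 replicate 3 and CD31+ replicate 3 held most of the counts of their groups. Leaving out P2 replicate 3 left 0 counts of Cldn2 in P2, so the fitted -9.39 there does not measure a size. Without CD31+ replicate 3 the value was -6.00. P2 and CD31+ cells could not be told apart at this depth (ratio 2.19, 0.525 to 12.8).

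Claudin-3, a barrier-forming claudin of bile duct and gut epithelium, is encoded by a single-exon gene (ENSMUSG00000070473, chromosome 5 from 134986214 to 134987472). Cldn3 had 17, 49 and 44 counts in E14.5 CD54+CD31- replicates 1 to 3, 0 in each CD31+ library, and 2, 0 and 3 in P2. Against 3 counts over the group, it was at least 59.6-fold lower in CD31+ than in CD54+CD31- cells (adjusted p = 0.000272). P2 was below CD54+CD31- cells by -4.81 (0.85, 0.000989), and by -5.40 without P2 replicate 3. The exon of Cldn3 shares 40 bases (3.18% of its length) with the antisense gene Wbscr25, and whether the counting used strand is not given in the sources used here.

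Claudin-6 is a claudin of embryonic epithelia. Its gene (ENSMUSG00000023906, chromosome 17 from 23679249 to 23682446) had 11, 13 and 4 counts in E14.5 CD54+CD31- replicates 1 to 3, 8, 0 and 0 in CD31+ cells and 1, 0 and 0 in P2. Cldn6 did not pass the low count filter at E14.5 and was not tested there. Claudin-7, an epithelial claudin (ENSMUSG00000018569, chromosome 11 from 69964779 to 69967885), had 2.66, 1.86 and 2.20 CPM in CD54+CD31- cells, 0.593, 0.267 and 0.570 in CD31+ cells, and 0.322, 0.187 and 0.0963 in P2. The CD31+ levels rested on 33, 15 and 36 counts and the P2 levels on 14, 9 and 5. CD54+CD31- cells stood above both others, and P2 and CD31+ cells overlapped. Cldn7 was lower in CD31+ than in CD54+CD31- cells, by -2.23 (0.45, 0.00137), and lower in P2, by -3.50 (0.50, 9.85e-05). Its difference between P2 and CD31+ cells, -1.27 (0.49, 0.0393), passed the test in only 8 of 17 alternative settings and missed it without P2 replicate 2 (-1.22, adjusted p = 0.0853).

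Over the members as a group, 8 of the 9 were tested at E14.5. Cldn2 and Cldn3 passed the low count filter only through their CD54+CD31- counts. A call of lower in P2 and CD31+ cells was therefore nearly fixed for them. The member counts, medians and overlaps below include both genes. Against E14.5 CD54+CD31- cells, P2 cells were higher for 1 member, Cldn5, and lower for 7, where 33.8% of all tested genes were called higher and 36.1% lower. The median log2 fold change of the 8 was -4.64, against -0.01 over all genes. The 8 tested members did not overlap between these populations, nor did 75.3% of all tested genes. Against CD31+ cells, P2 cells were higher for Ocln (34.3% of all genes) and lower for Cldn5, Cldn7, Cldn12 and Tjp1 (39.4% of all genes), while Cldn1, Cldn2 and Cldn3 did not pass the test. That median was -1.16, against -0.13 over all genes, and 4 members did not overlap, nor did 77.1% of all genes. CD31+ cells were higher than CD54+CD31- cells for 2 members, Cldn5 and Tjp1 (31.7% of all genes), and lower for 6 (34.0% of all genes), with a median of -3.91 against -0.03. None of the 8 overlapped, nor did 69.5% of all genes. Each pair of these comparisons shares 3 libraries, so their values are given side by side only.

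**Figure D4:**
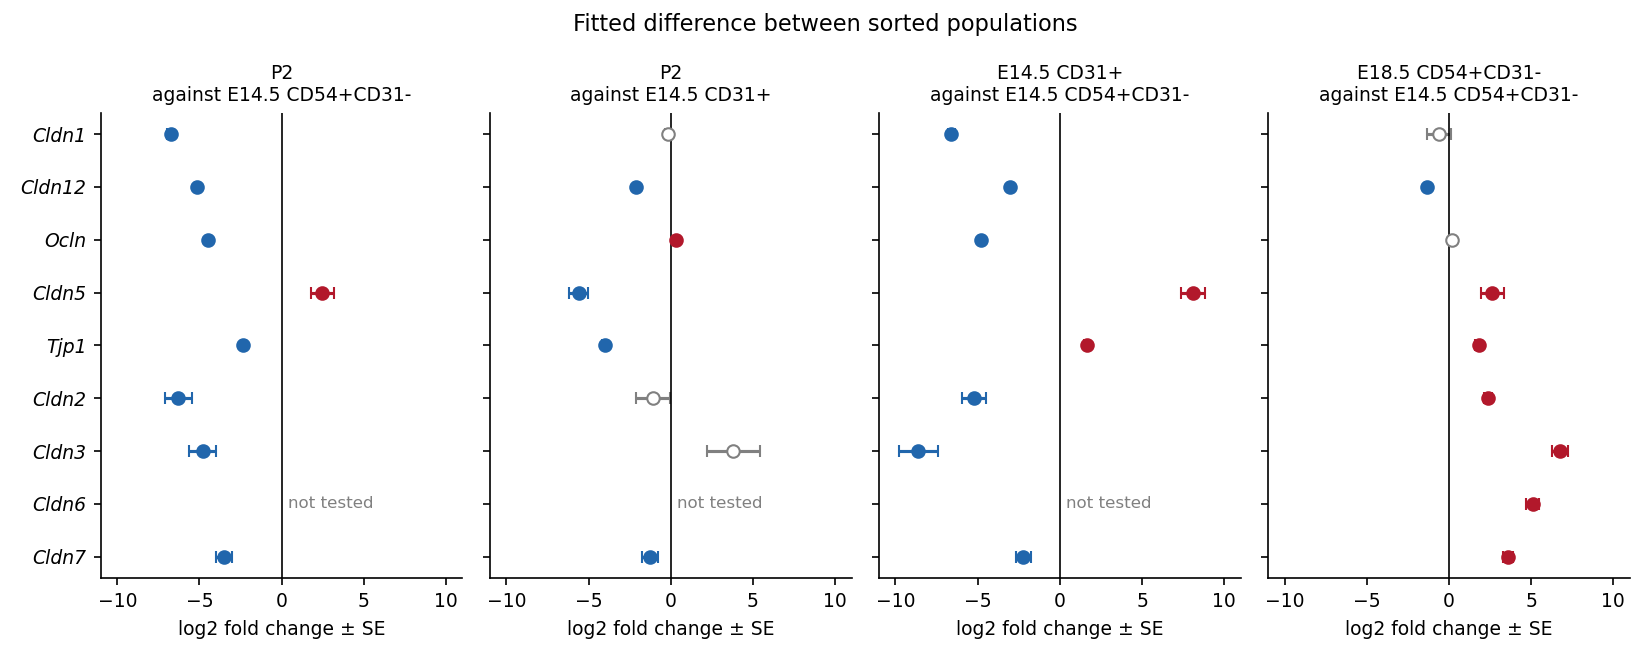
Points show the fitted log2 fold change of each gene, with bars of 1 standard error, in the 4 comparisons named above the panels. Filled red points were called higher and filled blue points lower in the first population (adjusted p below 0.05 in edgeR), and open points did not pass. Cldn5 lies opposite to Cldn1, Cldn12 and Ocln in the comparison of CD31+ with E14.5 CD54+CD31- cells, and 6 genes are red in the comparison of ages.

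Between ages, the same CD54+CD31- gate held more of 6 members at E18.5 than at E14.5 and less of 1. All 9 members were tested, and 35.9% of all genes were called higher and 33.5% lower. Cldn6, 1 of the 6, passed the low count filter only through its E18.5 counts. Its call of higher was therefore nearly fixed, and the median and overlaps below include it. The median log2 fold change of the members was 2.37, against 0.03 over all genes, and 7 members did not overlap, nor did 77.8% of all genes. Cldn3 had 139, 74.0 and 78.8 CPM in E18.5 replicates 1 to 3 and 0.481, 1.54 and 1.09 at E14.5, a log2 fold change of 6.76 (0.49, 5.24e-05). Cldn6 had 8.41, 7.56 and 8.12 CPM at E18.5 and 0.311, 0.409 and 0.0987 at E14.5, a log2 fold change of 5.09 (0.42, 7.88e-05). For both genes every E18.5 library was far above every library of the other 3 populations. Cldn7 went from 1.86 to 2.66 CPM at E14.5 to 31.7, 19.1 and 20.5 at E18.5 (3.59, 0.28, 6.43e-05). Cldn2 had 6.89, 8.17 and 9.39 CPM at E18.5 against 1.38 to 2.12 at E14.5 (2.37, 0.22, 0.000122). These 4 epithelial claudins had at most 2.66 CPM in any E14.5 library.

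Of the 2 members that are no claudins, Tjp1 passed the test between ages and Ocln did not. Tjp1 had 676, 456 and 456 CPM at E18.5, above all E14.5 CD54+CD31- libraries (1.80, 0.19, 0.000234). Ocln had 99.0, 70.6 and 74.3 CPM and overlapped the E14.5 libraries (0.20, 0.15, 0.272). Cldn12 was the member that fell, to 18.9, 23.2 and 26.2 CPM (-1.34, 0.12, 0.000126). Cldn5 had 4.12, 2.42 and 2.08 CPM at E18.5, above E14.5 (2.65, 0.69, 0.0123, and 3.38 without E14.5 replicate 3), and all 10 endothelial markers were higher too, by a median of 2.61 on the log2 scale. Cldn1 had 13.6, 125 and 157 CPM at E18.5. Its difference between ages did not pass the test (-0.59, 0.73, 0.497), and the value was -0.08 (adjusted p = 0.537) without replicate 1.

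E18.5 replicate 1 set the spread of Cldn1. It held 10.4-fold less Cldn1 than the mean of replicates 2 and 3, whereas replicate 2 was 0.796 times replicate 3. The middle of all genes was at a ratio of 1.01, with 0.261 and 1.89 at the 5th and 95th percentiles. The hepatoblast markers had a median ratio of 0.0839 in that library, with Dlk1 (1.67) and Foxa2 (1.35) above 1. Cldn3 (1.82), Cldn5 (1.83), Cldn7 (1.60), Tjp1 (1.48) and Ocln (1.37) were higher in replicate 1, and the lung epithelium markers had a median ratio of 1.93 (1.54 to 3.90). Cldn6 was close to even at 1.07, and Cldn2 (0.785) and Cldn12 (0.765) were somewhat lower. The cholangiocyte markers, which summed to 847 to 1244 CPM at E18.5 and 42.3 to 55.3 in the same gate at E14.5, had a median ratio of 1.34. The part of lung, bile duct or other cells in the E18.5 levels of these genes was not tested. Without replicate 1, the 6 members that were higher and the 1 that was lower at E18.5 were called in the same direction, with log2 fold changes of 6.39 for Cldn3, 5.05 for Cldn6, 3.31 for Cldn7, 2.46 for Cldn2, 2.27 for Cldn5, 1.57 for Tjp1 and -1.24 for Cldn12.

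**Figure D5:**
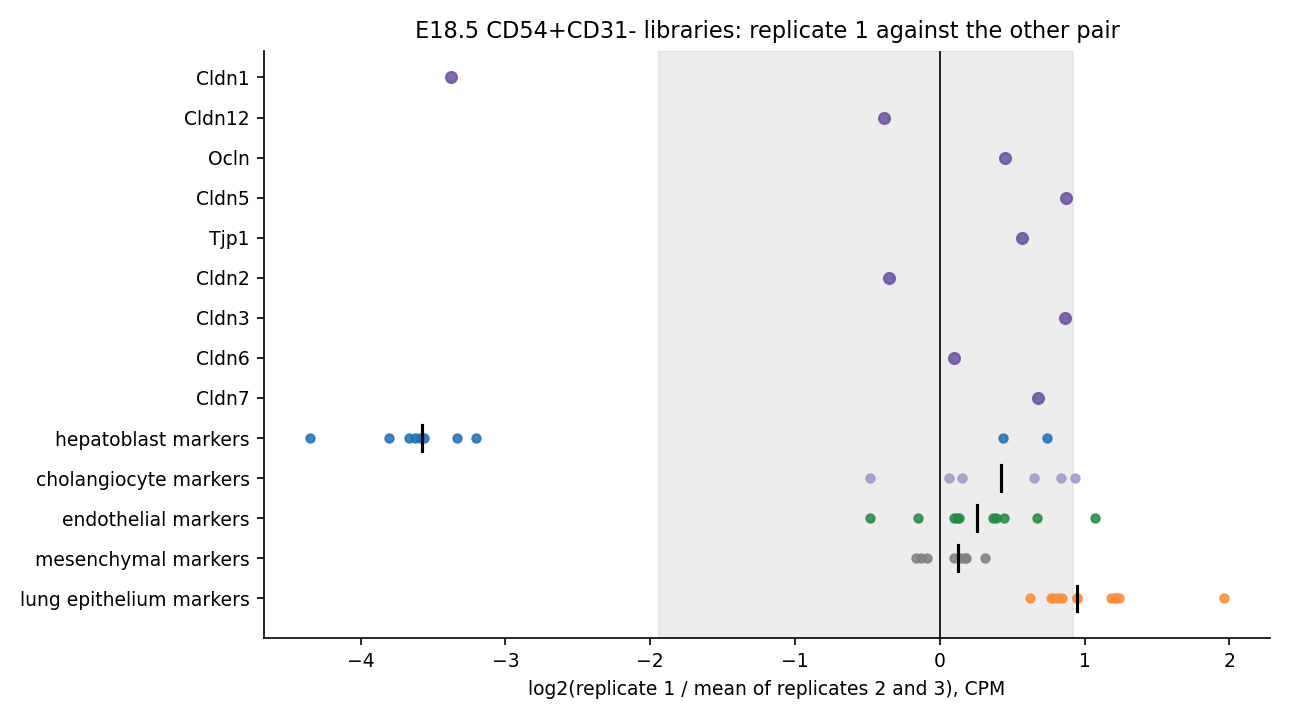
The horizontal axis gives, on a log2 scale, the CPM of E18.5 replicate 1 divided by the mean of replicates 2 and 3, for the 9 genes (purple) and for the single genes of 5 marker lists, with black ticks at list medians and grey shading from the 5th to the 95th percentile of all genes. Cldn1, at a ratio of 0.0965, lies beside most hepatoblast markers, outside the shading, and the other 8 genes lie within it.

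Of the 26 further claudin genes, few were expressed at E14.5, and 6 passed the low count filter there. Their changes went in both directions. Over all tested genes, 33.8% were called higher and 36.1% lower in P2 against CD54+CD31- cells. These shares were 34.3% and 39.4% in P2 against CD31+ cells, and 31.7% and 34.0% in CD31+ against CD54+CD31- cells. In P2 against CD54+CD31- cells, Cldn13 (46.3, 35.8 and 38.8 CPM in P2, 5.66, 10.5 and 6.64 in CD54+CD31- cells) and Cldn10 were higher, by 2.39 (0.25, 1.09e-05) and 2.05, and Cldn4 and Cldn14 were lower, by -4.03 and -3.78 (1 of them lower without P2 replicate 3). Since the study's list took Cldn13 from these libraries, its direction is no independent evidence. Cldn10 was low, with 54, 36 and 37 counts in P2, 8, 6 and 9 in CD54+CD31- cells, and 4, 7 and 8 in CD31+ cells. It passed the low count filter only through P2, so its calls of higher in P2 were nearly fixed. Cldn4 was sparse, with 12, 14 and 15 counts in CD54+CD31- replicates 1 to 3, 3, 0 and 0 in P2, and 0, 5 and 0 in CD31+ cells. Its calls of lower were nearly fixed, because it passed the low count filter only through CD54+CD31- cells. Against CD31+ cells, P2 was higher for Cldn13 (3.23) and Cldn10 (3.01) and lower for Cldn15 (-2.07) and Cldn34c1 (-0.66), a gene with near-identical relatives whose reads may be split (1 of them lower without CD31+ replicate 2). In CD31+ against CD54+CD31- cells Cldn15 was higher (2.34), Cldn34c1 just missed the test (0.53, 0.22, 0.0504) with 2 of the further claudins higher in most alternative settings, and Cldn4 (-3.62), Cldn14 (-3.37) and Cldn13 (-0.84) were lower.

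At E18.5, 9 of the further claudins were tested against E14.5. Of these, 6 were higher (35.9% of all genes) and 1, Cldn13 (-2.01), lower (33.5% of all genes). Cldn18, which has a lung form and a stomach form, had 574, 323 and 313 CPM at E18.5, while no E14.5 library exceeded 0.226, and the log2 fold change was 11.65 (0.63, 2.28e-05). Cldn18 was 1.81 times as high in replicate 1 as in replicates 2 and 3. Cldn10 (7.53), Cldn4 (5.44) and Cldn8 (5.31) followed. Cldn18, Cldn10 and Cldn8 passed the low count filter only through the E18.5 libraries, so their calls of higher were nearly fixed. Cldn8 had 88 counts over the E18.5 libraries and 1 over the E14.5 CD54+CD31- libraries. That is a ratio of 44.2 (95% exact Poisson interval 7.74 to 1767, covering counting error only). Cldn4, with 19.3, 12.7 and 11.9 CPM, neighbours Cldn3 on chromosome 5 at a distance of 39.3 kb, and Cldn13 lies 29.6 kb beyond Cldn4. The 3 neighbours were not alike: Cldn3 and Cldn4 were higher and Cldn13 lower at E18.5, and P2 had much Cldn13 with 5 counts of Cldn3 and 3 of Cldn4 over its 3 libraries. Cldn6 and Cldn9 lie 137 bases apart on chromosome 17, and Cldn9 had 14, 5 and 11 counts at E18.5 and 0 in every E14.5 library.

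Beyond claudins, 27 proteins of the junction and of cell polarity were followed, of which 25 were tested at E14.5. P2 cells were lower than CD54+CD31- cells for 21 (36.1% of all genes) and higher for 2 (33.8% of all genes). The median difference was -2.85 on the log2 scale. Cgn, the gene of cingulin, which links ZO-1 to myosin, had 183 ± 15.5 CPM in CD54+CD31- cells and 2.63 ± 0.181 in P2 (SD, n = 3 each), and with Lsr and Marveld2, both of corners where cells meet, and the polarity gene Crb3 fell by most (-6.14, -5.85, -5.33 and -5.81). The 2 higher were Esam (2.21), an adhesion molecule of endothelium and platelets that stood out in P2 replicate 2 (1.81, 11.1 and 2.23 CPM), and Ybx3. Ybx3 encodes a Y-box protein that binds ZO-1 and also acts in the nucleus, and it had 885, 815 and 907 CPM in P2, against 206 to 274 in CD54+CD31- and 213 to 262 in CD31+ cells. Its log2 fold change was 1.88 (0.12, 3.18e-07) against the former and 1.85 (0.12, 4.31e-07) against the latter.

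Against CD31+ cells P2 was lower for 19 of the 25 (39.4% of all genes), with a median of -2.20 over the list. The lowest values were those of Esam (-5.32), Cgnl1 (-5.00), F11r (-4.86) and Afdn (-4.73). P2 was higher for 3 (34.3% of all genes), Ybx3, Pard6b (2.07) and Crb3 (1.65). Crb3 was near the detection limit in both, with 3, 9 and 7 counts in P2 and 1, 3 and 3 in CD31+ cells. This gene passed the low count filter only through CD54+CD31- cells. Against CD54+CD31- cells, CD31+ cells were higher for 7 of the 25 (31.7% of all genes) and lower for 11 (34.0% of all genes). Those higher were led by the adhesion molecules Esam (7.53), Jam2 (3.13) and Jam3 (2.41) and by Ildr2 (2.41). Those lower were led by Crb3 (-7.46), Cgn (-5.72), Cxadr (-4.78) and Lsr (-4.73). The median was 0.03. At E18.5 all 27 were tested against E14.5, with a median of 1.01. Of them, 18 were higher (35.9% of all genes) and 6 lower (33.5% of all genes). Marveld3 (7.24), Ildr2 (6.52), Ildr1 (5.77) and Esam (4.53) had the highest values, and Amot (-1.56), Ybx3 (-1.20), Marveld2 (-1.09) and Lsr (-0.97) the lowest. Marveld3 had only 4, 4 and 2 counts in the E14.5 CD54+CD31- libraries, and Ildr1 6, 10 and 6. Both passed the low count filter only through the E18.5 libraries.

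The genes whose levels followed each member most closely over the 12 libraries were named by Pearson's r of log2(CPM + 1) among 16643 genes, as a description, since the 12 libraries form 4 populations and any gene with the same contrast between populations scores high. Cldn1 was closest to Apof and Alb (r = 0.998 each), Cldn12 to Tmem176a and Idh1 and Ocln to Abcd3 and Chmp4c (0.996 to 0.997). Cldn5 was closest to Pcdh12 and Sox17 (0.997 each), and Tjp1 to Ston1 (0.998) and Pcnx (0.996). Of the claudins that were high at E18.5, Cldn2 was closest to Vnn3 and Dcdc2a (0.996 and 0.994), Cldn3 to Efemp1 and Loxl1 (0.999 and 0.998), Cldn6 to Cpz and Podn (0.997 each) and Cldn7 to Sema3b and Tox3 (0.998 each).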

How the data were processed

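RNA-seq of 12 libraries from sorted FL cells was analysed. Per the labels and the methods, rRNA was removed with ZapR, libraries were made with a stranded pico-input kit, and the authors trimmed with cutadapt 1.11, aligned single reads to GRCm38 with STAR 2.5.0a and counted reads per gene with featureCounts 1.4.6-p3 (submitters' processing notes). Use of strand and of reads with several alignments is not given in the sources used here. Tests used the raw counts that the authors deposited, and beside them stood a score that is the count times 1 factor per library, rounded, from which only the factors (0.759 to 1.49) were read. Counting error is small beside the spread of 3 libraries for genes with many counts and not for the sparse claudins. Exact intervals, bounds or raw counts are given for the members Cldn2, Cldn3, Cldn5, Cldn6 and Cldn7, and for Cldn4, Cldn8, Cldn9 and Cldn10. Other claudins with few counts are given as CPM or a fold only, without counting error.

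Genes kept by filterByExpr were fitted with edgeR 4.0.16 in R 4.3.3 (TMM, edgeR's quasi-likelihood test, threshold of 0.05 on p-values adjusted by Benjamini-Hochberg), the 9 E14.5 libraries in one fit and the 6 CD54+CD31- libraries in another. The code was tested on simulated data. Exon lengths and positions came from GENCODE vM21. The members and all gene lists were chosen with earlier results of these data known. The members are named in full, the further claudins and junction proteins by at most the 4 largest called changes in each direction plus Cldn4, Cldn9, Cldn13 and Cldn18, and for each member the 2 genes of highest r. Alternatives were DESeq2 1.42.0 and its size factors in edgeR, the deposited factors, no count filter, at least 10 counts in every library, genes above 1% of a library left out, the replicate number as a block, all 12 or only 6 libraries in the fit, and each library left out in turn. Deviations of same-numbered libraries had r = 0.334, 0.26 and 0.122 across genes between CD31+ and CD54+CD31- cells at E14.5. In the other comparisons r ranged from -0.02 to 0.336. The labels do not state whether equal numbers mark paired samples, and the main fits did not use the numbers. Replicates differed by far more than sampling noise, and chi-square over degrees of freedom was 38.6 or more in each pair.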

Additional observations from a re-analysis of the deposited data

How the results depend on the processing

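Of 542 alternative values of single members, 524 had the same direction and the same side of the threshold as reported. Every call of P2 or CD31+ cells against E14.5 CD54+CD31- cells, and every call between ages, was among these. The others all concern P2 against CD31+ cells, where Cldn1 was 0.06 without P2 replicate 1 and ranged from -0.31 to 0.12 when 1 library was left out, and Ocln was -0.038 with the deposited factors. The number of members higher in P2 than in CD31+ cells was 0 with the deposited factors or only 6 libraries, 2 with DESeq2 and 1 to 2 with 1 library left out (2, with Cldn3 added, without P2 replicate 2). With at least 10 counts in every library only Cldn1, Cldn12, Ocln and Tjp1 could be tested at E14.5. Of these 4, the counts called were 0 higher and 4 lower for P2 against CD54+CD31- cells, 0 and 2 for P2 against CD31+ cells, and 1 and 3 for CD31+ against CD54+CD31- cells. The share of all genes called under this filter is not given here, so these counts have no background beside them.

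The replicate block changed no call of a member, and with it 10910, 11460, 10326 and 10329 genes were called in the comparisons in the order of the plot of fold changes, against 10815, 11395, 10150 and 11014 without it. The deposited factors shifted the median log2 fold change of all genes by -0.26, -0.37, 0.11 and 0.24 in that order, and the share of calls that were higher went from 48.3 to 38.2%, 46.6 to 33.9%, 48.3 to 53.4% and 51.7 to 60.9%. One fit of all 12 libraries shifted the median between ages by -0.19 and that share to 44.6%. Depth limits Cldn2, Cldn3 and Cldn6 at E14.5, where groups of 3 libraries held 0 to 195 counts. It also limits Cldn5 in E14.5 CD54+CD31- cells (58 counts) and Cldn7 in P2 (28 counts) and CD31+ cells (84 counts). With the length of the longest transcript in place of all exons, a choice added after seeing the data, the same claudin led in each population.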
